A study of Mus musculus with 2 samples.

Results

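The genes followed here store or move iron, and were measured in single cells sorted from mouse bone: Fth1, Ftl1, Tfrc, Slc11a1, Slc40a1, Steap4 and Slc25a37. They were taken by symbol, each symbol named 1 gene, and they are 7 of the 32285 genes of the counts. The cells were sorted for CD11b, F4/80 and CD68 and labelled osteal macrophages (Omacs, macrophages that lie on bone surfaces), although 85.0% of barcodes were neutrophil-like by their RNA. They came from bone of BALB/c female mice, 10 weeks old at surgery in the methods. The mice had been ovariectomized (OVX), which removes the main source of estrogen and causes bone loss, or sham-operated, and cells were taken 4 weeks after surgery without further treatment. Animals were pooled, so that OVX and sham are 1 pool each, carried different hashtag antibodies (hashtag 1 for OVX, hashtag 2 for sham) and shared 1 droplet library, in which every captured RNA molecule is counted once through its unique molecular identifier (UMI). With 1 pool per condition there is no replicate. Every interval given here is a 95% interval for counting error only, and no p-value was made. Intervals of UMI levels and ratios take UMIs of the same cell as independent.

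Iron enters most cells bound to transferrin through the transferrin receptor (Tfrc), is reduced by STEAP proteins such as Steap4, and is kept in ferritin, a shell built of heavy (Fth1) and light (Ftl1) chains. Ferroportin (Slc40a1) is the known iron exporter of mammalian cells, Slc11a1 (NRAMP1) moves divalent metals out of the phagosome, and mitoferrin 1 (Slc25a37) carries iron into mitochondria. Iron regulatory proteins bind RNA hairpins called iron-responsive elements when iron is scarce. Bound to a 5′ untranslated region (UTR) they hold back translation, and bound to the 3′ UTR of Tfrc they protect its RNA from decay, so that storage and uptake are set in opposite directions. For ferritin, therefore, RNA counts are not a measure of protein.

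Those elements are shown because they set apart the storage and export genes from the uptake gene. UTRs of protein-coding transcripts (GENCODE M21, GRCm38) were searched in the sense direction for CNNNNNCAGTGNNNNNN in which the 5 bases before the loop pair with the 5 bases after it, G-T pairs allowed. Of genes with an annotated 5′ UTR, 0.148% held the letters there, and of those with a 3′ UTR, 0.613%. The members held them in the 5′ UTR of Fth1, Ftl1 and Slc40a1 and, 4 times, in the 3′ UTR of Tfrc, while these letters were not found in the UTRs of Slc11a1, Steap4 or Slc25a37. Each line gives 30 bases, 5′ to 3′, with the 6 loop bases in capitals.
Fth1: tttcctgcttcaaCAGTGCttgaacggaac
Ftl1: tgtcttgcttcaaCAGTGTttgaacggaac
Slc40a1: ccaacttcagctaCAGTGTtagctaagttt
Tfrc element 1: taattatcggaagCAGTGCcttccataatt
Tfrc element 2: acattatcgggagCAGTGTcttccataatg
Tfrc element 3: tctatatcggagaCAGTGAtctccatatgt
Tfrc element 4: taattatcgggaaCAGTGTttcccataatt
They lie at chr19:9982731-9982760 (plus strand), chr7:45459779-45459808 (minus), chr1:45925465-45925494 (minus) and, for Tfrc on the plus strand, chr16:32631218-32631247, chr16:32631597-32631626, chr16:32631662-32631691 and chr16:32631709-32631738. A match of letters is a description and not evidence that a protein is bound there. Of the other iron genes searched, Alas2 held the letters in its 5′ UTR and Bola3 in its 3′ UTR.

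The library held 2349 barcodes with a median of 4387 UMIs (500 to 141565). The labels give 1037 OVX and 1084 sham cells as loaded, and the hashtag counts assigned 1059 barcodes to OVX (median 4812 UMIs) and 981 to sham (median 3704 UMIs), with 78 positive for both hashtags and 231 for neither. The labels call the cells macrophages, but neutrophil markers dominated: the 6 neutrophil markers summed to 177599 CPM (UMIs per 1000000) over all cells and the 8 macrophage markers to 132 CPM, with C1qa and C1qb at 1 UMI each. S100a8 (71279 CPM) and S100a9 (96479) made up most of the neutrophil sum. The other neutrophil markers were Retnlg at 7665, Cxcr2 at 981, Ly6g at 687 and Csf3r at 508 CPM. Cells were grouped into 6 clusters without the iron genes. The neutrophil-like ones, 1 immature and 3 late, held 85.0% of barcodes. The first (324 cells) was led by the secondary granule genes Camp, Ltf and Ngp, with Mki67 among its leading genes, and is called immature. The other 3 were low in those genes and are named by a leading gene: stefin-high late (550 cells), Acod1 late (969) and Wfdc17 late (154). A stromal-like cluster (210 cells) was led by Prg4 and Dcn. The sixth (142 cells) mixed Pf4, Arg1, antigen presentation, early neutrophil granule and cycling genes and is left unnamed. A finer clustering parted it into 61 Arg1-high cells and 81 others, in which 8 cycling genes summed to 1453 CPM. In these 81 cells 5 early granule genes, Prtn3 and Ms4a3 among them, summed to 322 CPM, against 26.3 CPM in the immature cluster. Neutrophil precursors earlier than the immature cluster may thus lie among them, outside the neutrophil-like set. Median UMIs per cell were 7396 in immature, 3506 in late and 19996.5 in stromal-like cells, so levels are given both as CPM and as UMIs per cell.

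The ferritin genes were among the most abundant RNAs. Fth1, whose heavy chain oxidizes iron for storage, was the 3rd gene of 18802 by UMIs over all cells and Ftl1, the light chain that aids the growth of the iron core, was the 11th. 3′ UMIs count molecules without a length term, though differences between genes in capture and mapping remain, so levels of different genes compare only roughly. Fth1 stood at 20897 CPM in the immature cluster, 42635 in stefin-high late, 60212 in Acod1 late, 71516 in Wfdc17 late, 45500 in the mixed and 18078 in the stromal-like cluster. In the same order, Ftl1 stood at 5170, 9218, 14593, 15788, 13255 and 1663 CPM. With the pools merged, both chains were thus by CPM highest in the Wfdc17 late cells among the 6 clusters and lowest in the stromal-like cells. Per cell the Fth1 order differed, with 480 UMIs in mixed, 471 in stromal-like, 321 in stefin-high late, 286 in Wfdc17 late, 205 in Acod1 late and 172 in immature cells. Counting error separated all neighbours in the orders by CPM, but the pools did not separate all of them. For Fth1, Wfdc17 late (72927 CPM in OVX, 58162 in sham) overlapped Acod1 late (56484 and 62792), which was the higher of the pair in sham. The immature cells (16460 CPM in OVX, 23591 in sham) overlapped the stromal-like cells (16496 and 18264), and the mixed cluster (38469 and 49371) overlapped stefin-high late (42689 and 46442). For Ftl1, Wfdc17 late (16008.5 and 14400) overlapped Acod1 late (11508 and 16101), and Acod1 late overlapped the mixed cluster (9751 and 15178).

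From immature to late neutrophil-like cells, Fth1 was 2.49-fold higher (2.47 to 2.51) and Ftl1 2.31-fold higher (2.27 to 2.35) by CPM. Per cell the difference was smaller, from 172 to 250.2 UMIs for Fth1 (1.45-fold) and from 42.5 to 57.3 for Ftl1 (1.35-fold). Both pools showed the direction. In OVX, Fth1 was 2.95-fold and in sham 2.55-fold higher by CPM, and per cell 1.93-fold and 1.18-fold. The Fth1 to Ftl1 proportion also differed between cell types. Stromal-like cells, with 471 Fth1 and 43.4 Ftl1 UMIs per cell, had more heavy chain UMIs per cell than any neutrophil-like cluster, but light chain UMIs close to the 42.5 of immature cells. Ftl1-ps1, annotated as a protein-coding gene, is a near-identical copy of Ftl1 by sequence and shared 99.6% of 910 aligned bases with it. It had 37.1 to 114 CPM in the neutrophil-like clusters. Counting could split or lose reads that fit both, so the Ftl1 level is uncertain.

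To follow maturation without clusters, neutrophil-like cells were ordered by the share of late among early plus late marker UMIs and split into 5 bins of 398 cells, with 7 cells left out for lack of these UMIs. The median late share was 29.5%, 84.2%, 97.0%, 100% and 100%. Bins 4 and 5 are not ordered against each other, since 709 of the cells had a share of 100%. Fth1 stood at 22855, 40504, 54204, 62724 and 64582 CPM along the bins, but at 179, 259, 301, 255 and 198 UMIs per cell. Ftl1 stood at 5803, 8819, 11865, 14084 and 16291 CPM and at 45.5, 56.3, 65.9, 57.2 and 49.9 UMIs per cell. Ferritin thus took a growing share of the RNA while its molecules per cell were highest in the middle bin. Median UMIs per cell went from 7112.5 in the first bin to 2667 in the fifth, and fewer molecules captured and less RNA per cell cannot be told apart. A share of 100% only needs the absence of early-marker UMIs, which is more likely in cells with few UMIs. The order of the bins is thus itself not independent of depth.

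**Figure D1:**
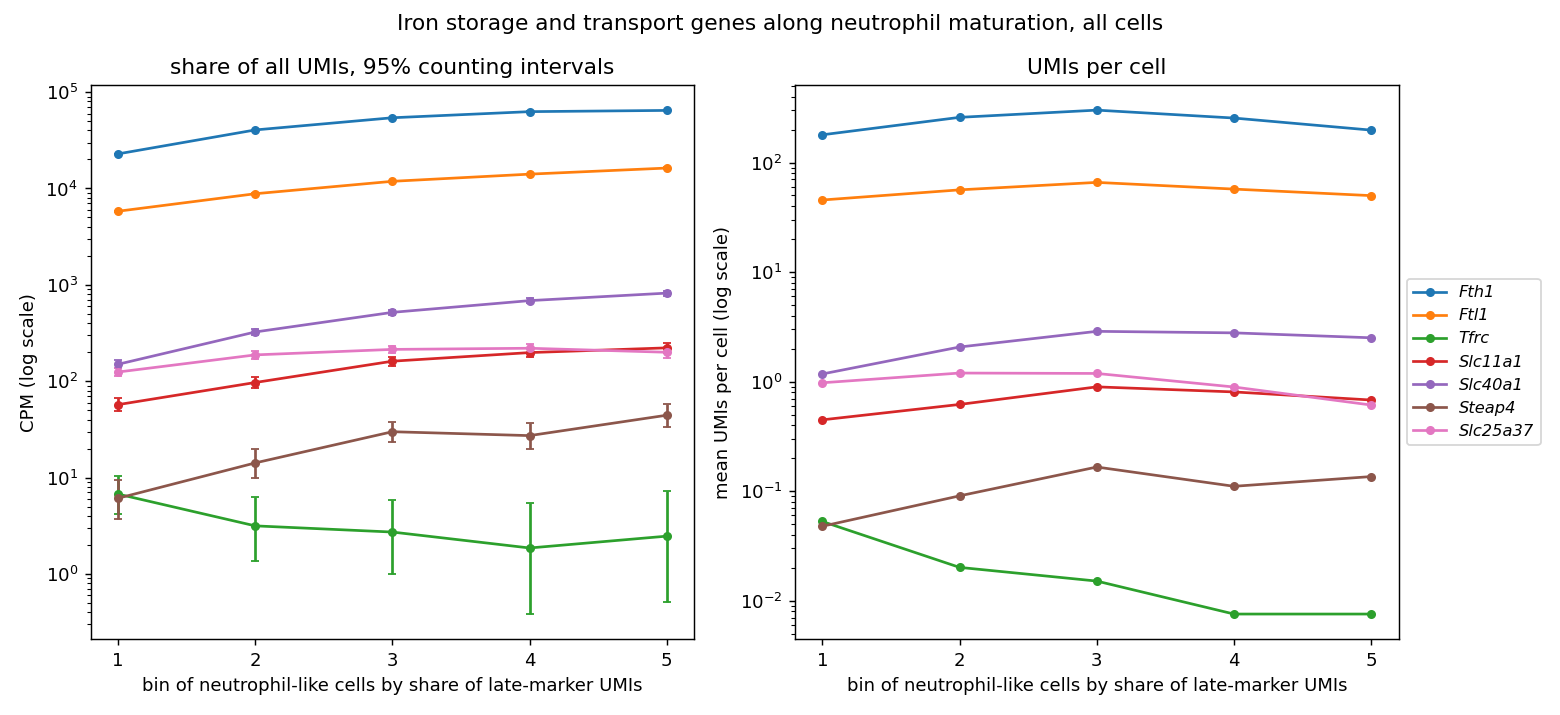
Levels of the 7 genes in 5 bins of 398 neutrophil-like cells ordered by late-marker share, as CPM with 95% counting intervals (left, log axis) and as mean UMIs per cell (right, log axis), all hashtags together. By CPM 6 genes are higher in bin 5 than in bin 1 and Tfrc is lower, and by UMIs per cell Slc25a37 is also lower in bin 5.

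Tfrc, the uptake receptor, had 714 UMIs in all and a different order of clusters. It stood at 109 CPM (100 to 118) in stromal-like cells, which held 594 of its UMIs, at 52.8 CPM (41.8 to 65.7) in the mixed cluster and at 7.88 CPM (4.88 to 12.04) in the immature cluster. Stefin-high late cells had 2.66 CPM (1.33 to 4.76), Acod1 late cells 2.43 CPM (1.05 to 4.79) and Wfdc17 late cells 1.62 CPM (0.0411 to 9.05), which do not differ beyond counting error. A Tfrc UMI was found in 69.0% of stromal-like, 5.86% of immature and 1.08% of late cells, and after thinning every cell to 1000 UMIs in 8.08%, 0.641% and 0.258%. The thinned shares of immature (2 of 312 cells, 0.0777% to 2.30%) and late cells (4 of 1549, 0.0704% to 0.660%) did not separate. Late cells stood at 2.29% of the stromal-like level, against 0.398% for Prg4 and 0.600% for Dcn, stromal genes that neutrophils should lack. In the mixed cluster, 72 of its 79 Tfrc UMIs fell in the 81 cells that were not Arg1-high (78.3 CPM), and 7 in the Arg1-high cells (12.1 CPM). Those 81 cells had the most cycling and early granule gene RNA, so the immature cluster and the first maturation bin need not hold the least mature neutrophils. Their leading genes, however, were Ccl22, Ccl17, Ccr7, H2-Eb1 and Cd74. Their Tfrc UMIs lay in 17 cells, and which type of cell held them was not tested. Erythroid precursors, the cells best known for Tfrc and Slc25a37, were close to absent by their markers: Hbb-bs had 5 UMIs in all cells, Hba-a1 had 1, and Alas2 and Klf1 had 0.

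Within neutrophil-like cells Tfrc was 0.316-fold in late against immature cells (0.162 to 0.612), from 21 UMIs in 324 cells and 20 in 1673. The direction was the same in OVX (9.08 to 2.97 CPM) and in sham (6.06 to 1.93 CPM), although in sham the interval of the ratio (0.0820 to 1.10) reached past 1. Along the 5 bins it had 21, 8, 6, 3 and 3 UMIs. Set against each other, storage and uptake parted: 3310 ferritin UMIs (Fth1 plus Ftl1) per Tfrc UMI in immature and 25723 in late cells, a log2 difference of 2.96. Both counts come from the same cells, so their total UMIs cancel. It was 182 in stromal-like cells, 438 in the mixed cells that were not Arg1-high and 8059 in the Arg1-high cells.

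**Figure D2:**
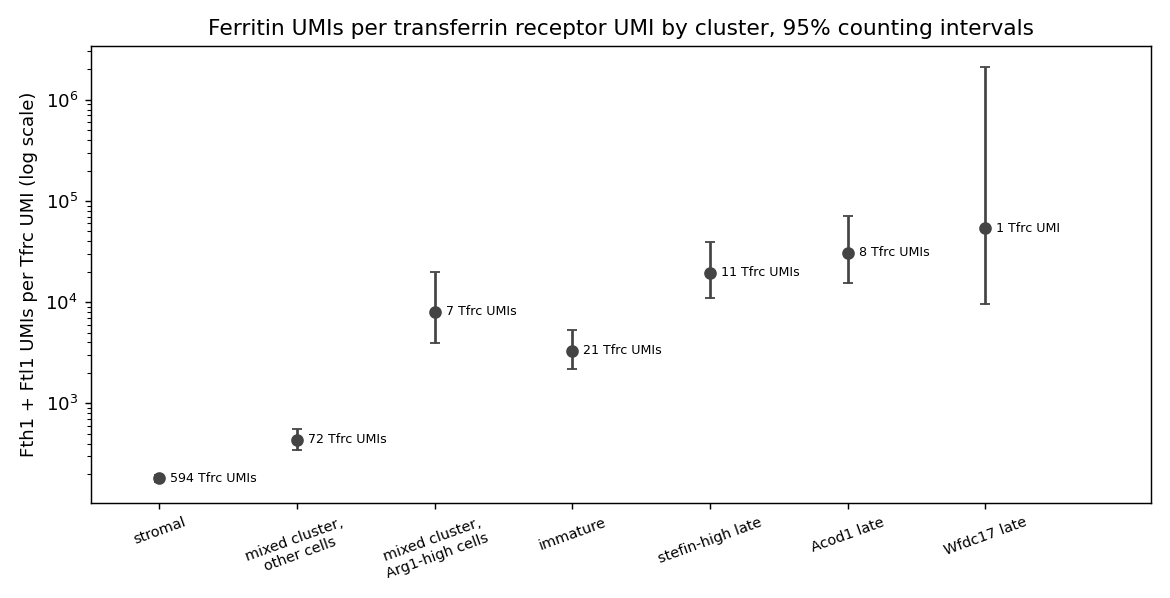
Ferritin UMIs (Fth1 plus Ftl1) per Tfrc UMI in each cluster on a log axis, all hashtags together, with 95% counting intervals and the number of Tfrc UMIs behind each point. The quotient runs from 182 in stromal-like cells to 53744 in Wfdc17 late cells, the latter resting on 1 Tfrc UMI.

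Steap4, a ferric and cupric reductase, was sparse, with 312 UMIs. It stood at 38.7 CPM (32.9 to 45.2) in stefin-high late, 34.1 (21.1 to 52.2) in Wfdc17 late, 16.3 (13.1 to 20.01) in stromal-like, 7.59 (4.91 to 11.2) in Acod1 late, 4.88 (2.60 to 8.34) in immature and 2.67 (0.727 to 6.84) in mixed cells. Counting error did not separate stefin-high late from Wfdc17 late, Acod1 late from immature, or immature from mixed cells. The order came from the OVX pool, since in sham 48 of the 55 Steap4 UMIs were in stromal-like cells and 7 in neutrophil-like cells.

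Slc40a1, the exporter, stood at 126 CPM (113 to 141) in immature, 414 (395 to 435) in stefin-high late, 612 (586 to 640) in Acod1 late, 786 (718 to 860) in Wfdc17 late, 44.1 (34.1 to 56.1) in mixed and 8.22 (6.0 to 11.0) in stromal-like cells. Late cells were 4.15-fold above immature cells by CPM (3.71 to 4.65) and 2.42-fold per cell. It was detected in 74.5% of late cells, and in 13.8% of the far deeper stromal-like cells. Along the bins it stood at 150, 324, 518, 685 and 820 CPM. Per cell it had 1.17 UMIs in the first bin, 2.07 in the second and 2.51 in the fifth, and was highest in the middle bin. Exporter and receptor were thus at opposite ends: the stromal-like cells were highest in Tfrc and lowest in Slc40a1 of the 6 clusters.

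Slc11a1, the phagosomal transporter, stood at 43.1 CPM (35.6 to 51.8) in immature, 147 (136 to 159) in stefin-high late, 144 (132 to 158) in Acod1 late, 284 (244 to 330) in Wfdc17 late, 88.8 (74.4 to 105) in mixed and 2.56 (1.40 to 4.29) in stromal-like cells. Stefin-high late and Acod1 late did not separate. Late cells were 3.63-fold above immature cells by CPM (2.99 to 4.43) and 2.12-fold per cell. In the mixed cluster the Arg1-high cells held 110 of 133 UMIs, at 191 CPM, 1.22-fold of the late level (0.993 to 1.48), whereas their Slc40a1 (64.1 CPM) was 0.122-fold of the late level (0.0860 to 0.169). These Arg1-high cells also had 77848 CPM of Fth1 and 19862 of Ftl1, above all 6 clusters, and 1574 CPM of summed macrophage markers. Slc11a1 and Slc40a1 in stromal-like cells were 2.00% and 1.93% of the neutrophil-like level, against 0.647% for S100a8 and 0.693% for S100a9.

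Slc25a37, the mitochondrial importer, varied least of the members across the 6 clusters, as the quotient of the highest and lowest CPM. Per cell this did not hold: it ran from 0.556 UMIs in Acod1 late to 5.97 in stromal-like cells, and Fth1 from 172 in immature to 480 in mixed cells. It stood at 97.5 CPM (86.0 to 110) in immature, 236 (222 to 252) in stefin-high late, 164 (150 to 178) in Acod1 late, 271 (232 to 316) in Wfdc17 late, 78.1 (64.6 to 93.6) in mixed and 229 (216 to 242) in stromal-like cells. Stefin-high late, Wfdc17 late and stromal-like cells did not all separate from each other by counting error. Its difference between late and immature cells, 2.15-fold by CPM (1.88 to 2.45), was 1.25-fold per cell. Per cell the pools went opposite ways, from 1.02 UMIs in immature to 1.36 in late cells in OVX and from 0.730 to 0.618 in sham. Along the bins the direction depended on the scale, with 1.60-fold in the fifth over the first by CPM (1.36 to 1.89) and 0.626-fold per cell.

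**Figure D3:**
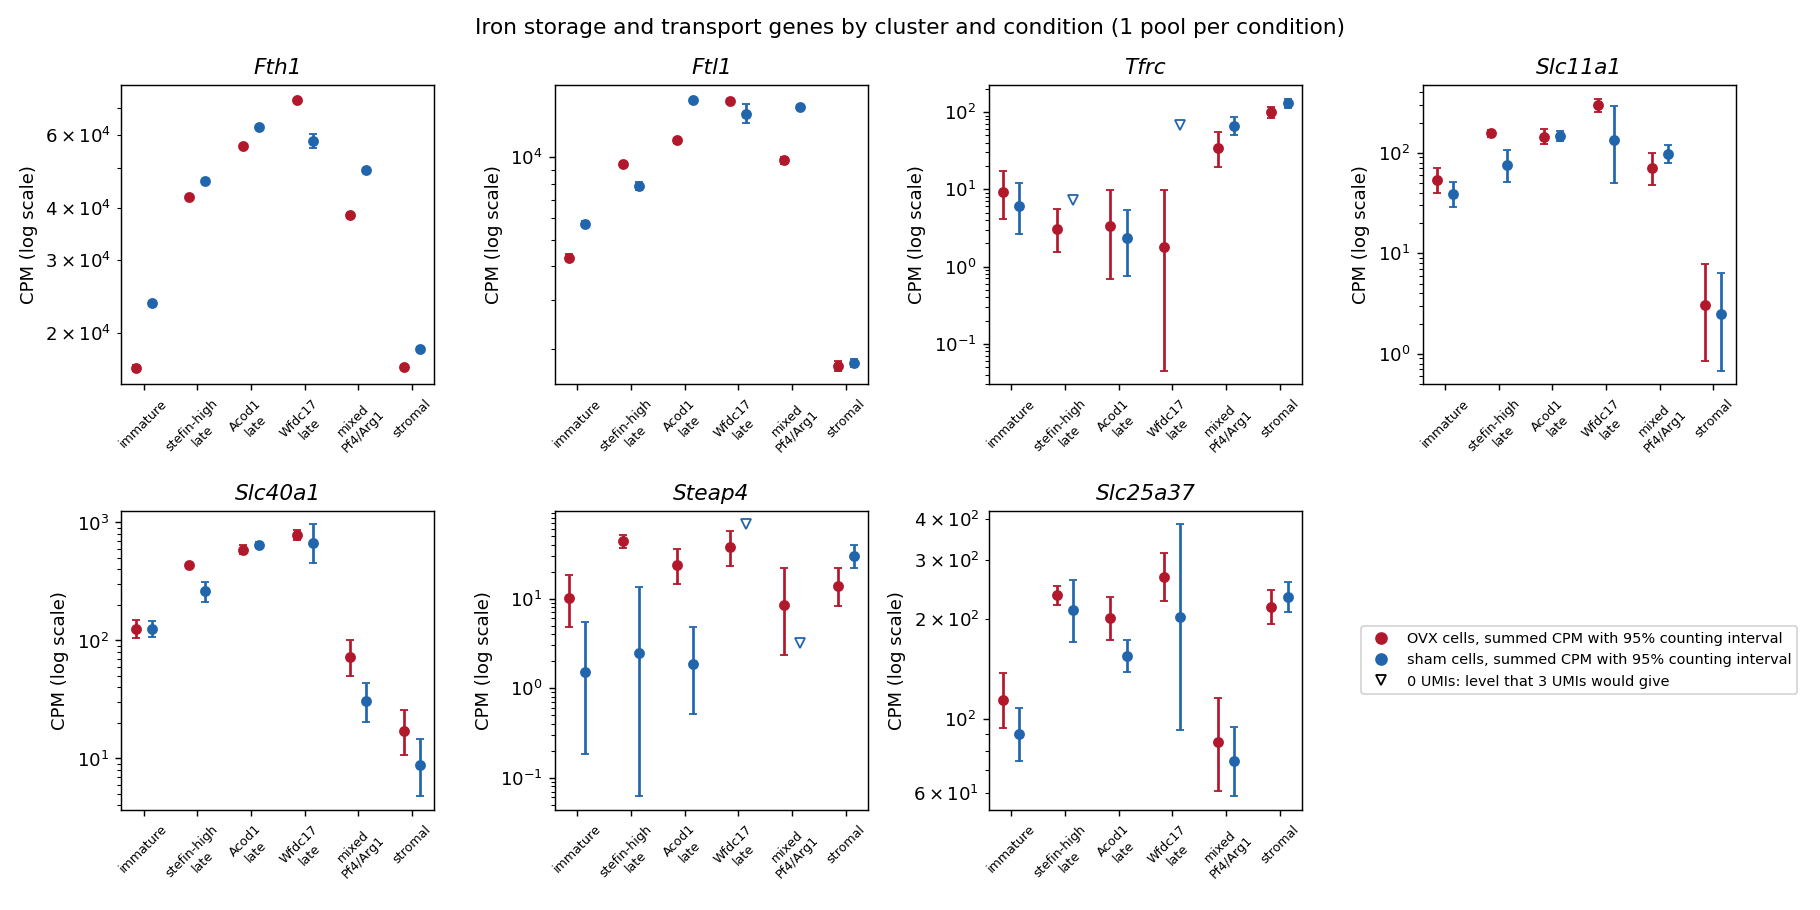
CPM (log axis) of each gene in the 6 clusters, with OVX and sham cells as separate points, 95% counting intervals, and open triangles at the level that 3 UMIs would give where a group had 0 UMIs. Fth1, Ftl1, Slc40a1 and Slc11a1 are higher in the 3 late clusters than in the immature one in both pools, and Tfrc is highest in stromal-like cells. The Steap4 intervals of the pools do not overlap in stefin-high late and Acod1 late cells, higher in OVX, and in stromal-like cells, higher in sham.

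OVX and sham were then compared. Over all cells Fth1 stood at 38509 CPM in OVX and 40700 in sham, and Ftl1 at 8247 and 9754. The summed ferritin ratio was 0.927 (log2 −0.11). This ratio of all cells hides the makeup of the pools: OVX cells were 43.7% stefin-high late, 24.7% Acod1 late and 13.03% Wfdc17 late, and sham cells 6.12%, 63.2% and 1.12%. From cluster shares alone the Fth1 ratio would be 1.04, and at equal shares it was 0.894. Within clusters Fth1 was lower in OVX in 5 of 6, from 0.698-fold in immature (0.685 to 0.711) to 0.919-fold in stefin-high late cells, and 1.25-fold higher in Wfdc17 late cells (1.20 to 1.31), which rest on 11 sham cells. Ftl1 was lower in OVX in Acod1 late cells, 11508 against 16101 CPM (0.715-fold, 0.699 to 0.731), in immature cells (0.753-fold) and in mixed cells (0.642-fold). It was 1.20-fold higher in stefin-high late cells and also higher in Wfdc17 late cells, with their 11 sham cells. In every maturation bin both chains were lower in OVX by CPM, Fth1 from 0.652-fold in the first to 0.876-fold in the fifth and Ftl1 from 0.797-fold in the second to 0.625-fold in the fifth. The bins match the late-marker share and not the cluster, and the late clusters differ in ferritin level and in their shares of the pools. How much of the bin ratios follows these shares was not tested. Per cell the direction was the opposite in most bins. Fth1 had 150 UMIs per cell in OVX and 203 in sham in the first bin, but 283 and 249, 337 and 260, 295 and 222, and 227 and 180 in bins 2 to 5. Ftl1 was higher per cell in OVX in bins 2 to 4 (59.5 to 72.0 against 51.1 to 58.6) and lower in bins 1 and 5. In all late cells, whose cluster shares differ between the pools, Fth1 stood at 283 UMIs per cell in OVX and 225 in sham, while by CPM it was 0.807-fold. Late OVX cells had a median of 4269 UMIs and late sham cells 3117, and whether OVX cells held less ferritin RNA therefore depended on the scale. Of the ferritin ratios by cluster, a fold of 1.5 was passed by Ftl1 in the mixed cluster. Of all genes at 10 CPM or more, 20.6% were higher and 16.8% lower in OVX by 1.5-fold in stefin-high late cells, 14.9% and 8.02% in Acod1 late, 11.7% and 14.3% in immature, 24.5% and 34.1% in Wfdc17 late, 15.5% and 20.7% in mixed, 9.1% and 10.6% in stromal-like and 10.1% and 6.78% in all late cells. Giving each barcode to the hashtag with at least 80% of its hashtag UMIs turned the all-cell ferritin ratio to 1.06. Under that rule both chains were lower in OVX by CPM in each bin, from 0.710 to 0.886 for Fth1 and from 0.637 to 0.876 for Ftl1.

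Of genes at 10 CPM or more in either pool, 4.67% were 1.5-fold or more higher and 21.8% were 1.5-fold or more lower in OVX over all cells. Tfrc was among the lower ones, with 21.5 CPM (18.4 to 25.1) in OVX and 44.1 (39.1 to 49.5) in sham, a ratio of 0.488 (0.401 to 0.593). Cluster shares alone would give 0.639, and at equal shares the ratio was 0.769. The clusters that carry most Tfrc, stromal-like (98.9 and 130 CPM, ratio 0.759, 0.604 to 0.95) and mixed (34.0 and 66.4 CPM, ratio 0.512, 0.276 to 0.897), had the same direction by CPM. The mixed ratio rests on few cells, as its UMIs lay in 10 of 47 OVX cells (21.3%) and 13 of 73 sham cells (17.8%). Equal weight per cell gave 22.6 and 34.1 CPM there. A Tfrc UMI was found in 78.9% of OVX and 79.6% of sham stromal-like cells. In neutrophil-like cells, with 24 UMIs in OVX and 13 in sham, no difference was detectable (ratio 1.20, 0.586 to 2.56). Of the 210 stromal-like barcodes 112 carried neither hashtag, so the pools' stromal-like shares (3.59% and 5.5%) are uncertain.

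Steap4 had the largest ratio of the members, with 29.6 CPM (25.9 to 33.7) in OVX and 8.51 (6.41 to 11.1) in sham, 3.48-fold (2.58 to 4.76). Stefin-high late cells had 157 UMIs in 463 OVX cells and 1 in 60 sham cells, 43.7 against 2.44 CPM (17.9-fold, 3.17 to 712). Acod1 late cells had 21 UMIs in 262 OVX cells and 4 in 620 sham cells, 23.7 against 1.87 CPM (12.6-fold, 4.26 to 50.7). Immature cells had 10 in OVX and 2 in sham (6.66-fold, 1.42 to 62.5). By UMIs the pools were thus apart in each of these clusters. In immature cells, however, the UMIs lay in 5 OVX and 2 sham cells. The intervals of these shares of cells, 4.50% (1.48 to 10.2) and 1.23% (0.149 to 4.36), overlapped. Wfdc17 late OVX cells held 21 UMIs against 0 for the 11 of sham, whose depth sets a limit of 67.6 CPM. Mixed cells held 4 UMIs in OVX (8.51 CPM, 2.32 to 21.8) and 0 in sham (0 to 3.89 CPM). Their OVX level was 2.69-fold of what 3 sham UMIs would give, with the counting error of the 4 UMIs left out. Along the maturation bins OVX had 16, 34, 66, 41 and 52 UMIs and sham 1, 2, 0, 2 and 2. In stromal-like cells the direction was the opposite, 13.9 against 29.95 CPM (0.464-fold, 0.254 to 0.813). With equal weight per cell the log2 ratio over all cells was 3.44 in place of 1.80. At equal cluster shares the Steap4 ratio was 3.26, whereas shares alone would give 2.08. The latter takes cluster levels over both pools, and OVX cells gave 157 of the 160 Steap4 UMIs of stefin-high late cells. It therefore already holds the difference between the pools and does not measure the effect of shares apart from it. After thinning to 1000 UMIs, 3.15% of OVX and 0.161% of sham late cells held a Steap4 UMI.

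Slc11a1 stood at 122 CPM in OVX and 76.9 in sham (1.58-fold, 1.42 to 1.77), where shares alone would give 1.42 and equal shares 1.39. Stefin-high late cells had 157 against 75.6 CPM (2.07-fold, 1.44 to 3.08), while Acod1 late cells had 145 and 146 CPM. Slc40a1 stood at 346 and 267 CPM (1.30-fold, 1.22 to 1.38) over all cells, where shares alone would give 1.24 and equal shares 1.18. With the 3 late clusters together it was lower in OVX, 500 against 586 CPM (0.853-fold, 0.80 to 0.909), but higher per cell, 2.92 against 2.20 UMIs. These clusters have different shares in the pools. In stefin-high late cells Slc40a1 was higher in OVX, 433 (412 to 455) against 261 CPM (214 to 315). In Acod1 late cells it was 588 (539 to 641) against 647 CPM (613 to 682), and in Wfdc17 late cells, with 11 sham cells, 787 against 676 CPM. When each cell had equal weight the all-cell log2 ratio was −0.22, so the direction of the exporter depended on which cells were counted and how. In the fifth bin it stood at 716 in OVX and 1036 CPM in sham (0.691-fold, 0.609 to 0.786). Slc25a37 stood at 206 and 153 CPM (1.35-fold, 1.24 to 1.46) over all cells, where shares alone would give 1.25 and equal shares 1.12. OVX was above sham in each bin, from 1.33-fold in the first to 1.66-fold in the third. In stefin-high late cells the levels, 235 (220 to 252) and 212 CPM (170 to 262), did not separate, and in stromal-like cells the ratio was 0.933 (0.796 to 1.09).

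**Figure D4:**
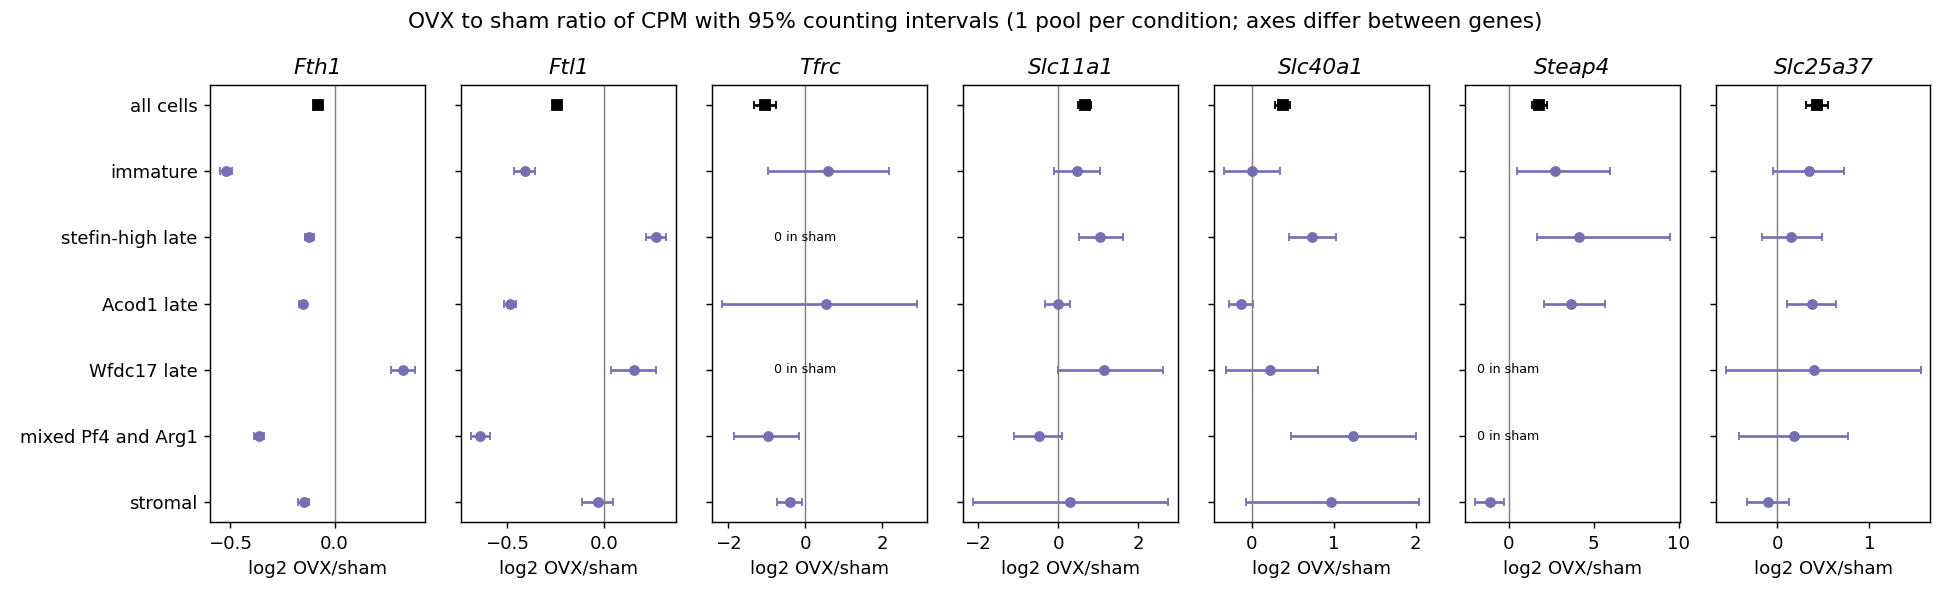
OVX to sham log2 ratio of CPM for each gene in all cells (squares) and in each cluster (circles), with 95% counting intervals, 1 pool per condition. Steap4 is above 0 in the 3 neutrophil-like clusters where sham had UMIs and below 0 in stromal-like cells, and Fth1 is below 0 in 5 of 6 clusters.

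**Figure D5:**
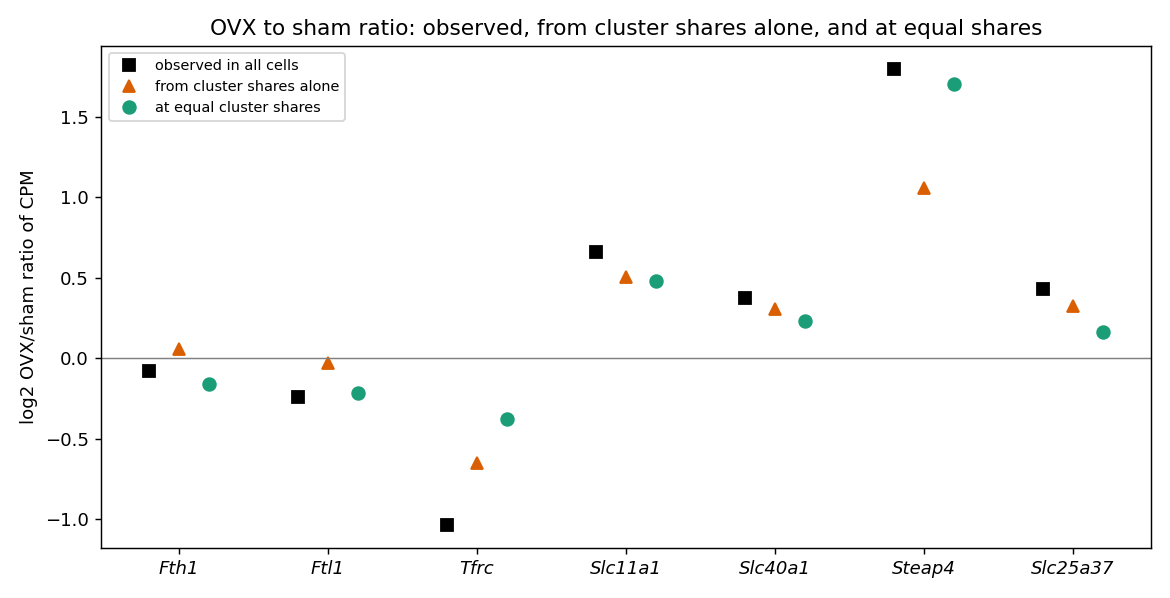
OVX to sham log2 ratio of CPM for each gene as observed in all cells (squares), as cluster shares alone would give it (triangles) and at equal cluster shares (circles). For Tfrc the observed value of −1.03 becomes −0.38 at equal shares, and for Steap4 1.80 becomes 1.71.

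The members and the genes around them were described from lists of 68 genes of iron handling, which include the members. Between late and immature cells, 31 of them reached 10 CPM, of which 11 were 2-fold or more higher and 3 lower, where 8.62% of all genes were higher and 16.7% lower. Their median log2 difference was 0.46, against −0.06 over all genes. All members but Tfrc, which was below 10 CPM in both groups, were among the 11. The others among them were Hmox1, Blvrb, Fbxl5, Bach1 and Slc7a11. Members and lists were chosen with earlier results of these data known, so these counts are a description and not a test of the list. Of the heme breakdown and transport genes, Hmox1, heme oxygenase 1, which frees iron from heme, was 3.07-fold and Blvrb, a biliverdin reductase, 3.05-fold higher, 2 of 5 measured. Of the iron sensing genes, Fbxl5, which targets iron regulatory protein 2 for degradation, was 2.68-fold and Bach1, a repressor of Hmox1 and ferritin genes, 2.36-fold higher, 2 of 7 measured. Of the ferroptosis genes, the cystine transporter Slc7a11 was 4.04-fold higher and Aifm2 0.431-fold, 2 of 6. The iron-binding secreted proteins went the other way, with Ltf (lactoferrin, also used to name the immature cluster) at 0.0728-fold and Lcn2, which binds iron-carrying siderophores, at 0.25-fold, 2 of 3. Of mitochondrial and Fe-S genes only Slc25a37 of 4 measured passed the fold, and Alas1, the first enzyme of heme synthesis, was at 0.953-fold.

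Between OVX and sham, 41 of the 68 genes were measured over all cells, of which 4 were 1.5-fold or more higher (Steap4, Slc11a1, Fbxl5 and Trf) and 8 lower, beside the 4.67% and 21.8% of all genes. At 50 CPM or more, 3 of 24 were higher and 3 lower, beside 5.29% and 17.4% of all genes. Their median log2 ratio was −0.15, against −0.23 over all genes. Fbxl5 stood at 1040 against 544 CPM (1.91-fold) and the transferrin gene Trf at 147 against 97.6 CPM (1.5-fold). Among the lower genes, Hmox1 stood at 927 against 1600 CPM (0.580-fold) and the oxidase Cp at 37.3 against 75.8 CPM (0.492-fold). These ratios of all cells were not set at equal cluster shares. Cp stood at 278 CPM in stromal-like cells, whose share of each pool is uncertain, and at 2.67 CPM or less in every other cluster. Hmox1 stood at 850 CPM in stefin-high late and 1669 CPM in Acod1 late cells, clusters whose shares differ between the pools. In stefin-high late cells 8 of 31 were higher and 2 lower, and in Acod1 late cells 3 of 32 were higher and 2 lower, beside 20.6% and 16.8%, and 14.9% and 8.02%, of all genes.

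The genes most like a member in level were looked up over the 11 cluster-by-condition groups of at least 20 cells, as Pearson's r of log2(CPM + 10) among 4797 genes. These groups share 1 library and adjoining cells, and the order is a description. Nearest to Tfrc were Timm17a (r = 0.998), Hspd1, Pdcd11, Nop58 and Hars (0.995). Nearest to Fth1 were Cstb (0.977), Sgpl1, Sdcbp, Cdk9 and Esd (0.945). Ftl1 had r = 0.918 with Fth1, and Tfrc had −0.56 with Fth1 and −0.94 with Slc40a1.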

How the data were processed

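Reads were aligned by the authors to mm10 (GRCm38) in Cell Ranger, and they deposited whole-number UMI counts per gene and hashtag, not normalized, for the barcodes called as cells. The release is 6.0.1 in the submitters' processing notes and an earlier one in the file's header. Members and lists were chosen with earlier results of these data known. Barcodes were given to OVX or sham by HTODemux (Seurat 5.3.0, R 4.3.3, positive quantile 0.99) on the hashtag counts alone. Clustering used scanpy 1.11.5 and igraph 0.11.9 (Louvain, 2000 variable genes without members, iron lists or Ftl1-ps1, 30 principal components, 15 neighbors) at the lowest resolution with 6 clusters of at least 10 cells, found in steps of 0.01. The immature cluster stands for the proliferating cluster of the planned comparisons. No doublet caller was run. Levels are UMIs summed over cells per 1000000. Ratios are of such levels with exact conditional intervals, counts with exact Poisson intervals, and where a group had 0 UMIs a floor of 3 UMIs in that group was used. Late means the 3 late clusters together. The ratio from cluster shares alone gives each cluster its level over both pools, and that at equal shares weights each cluster by its UMIs over both pools. The ratio from shares alone can thus hold differences between the pools, and these ratios are not parts that make up the observed one. The genes named are the 7 members, the extremes of each iron list at 50 CPM or more in any cluster, the 5 genes nearest to Tfrc and to Fth1, and markers. Aifm2, at most 37.5 CPM in any cluster, was named outside this rule. Genes such as Trf and Cp were named after their values were seen. Gene positions and UTRs are from GENCODE M21 (GRCm38). The calculations were tested on simulated data. Alternatives were another hashtag rule (956 OVX and 1166 sham barcodes), a filter (at least 500 genes, at most 10% mitochondrial UMIs), equal weight per cell, no stromal-like cells, no barcodes with both hashtags, Leiden clustering, 1000 variable genes, 30 neighbors, 8 clusters, thinning to 500 UMIs, other cycling cutoffs and 50 CPM. Chosen after seeing the data were equal cluster shares, each pool alone, and 9 clusters to split the mixed one.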

Additional observations from a re-analysis of the deposited data

Results flagged for a closer look

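Clusters differed in the direction of OVX against sham for 3 genes, in each of which counting intervals lay on opposite sides of no difference. None of these differences between clusters was tested, as each pool is 1 sample. The log2 ratio of Fth1 was 0.33 in Wfdc17 late cells, with 11 sham cells, and −0.52 in immature cells. The log2 ratio of Ftl1 was 0.27 in stefin-high late cells and −0.64 in the mixed cluster, in which the Arg1-high and the other cells have different makeups in the pools (15 and 32 cells in OVX, 41 and 32 in sham). The log2 ratio of Steap4 was 4.16 in stefin-high late cells, with 1 sham UMI, and −1.11 in stromal-like cells, with 18 UMIs in 6 OVX cells and 48 in 7 sham cells.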

How the results depend on the processing

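With the 80% hashtag rule the OVX to sham log2 ratio of ferritin turned from −0.11 to 0.082, that of Fth1 from −0.08 to 0.092 and that of Ftl1 from −0.24 to 0.040, and that of Tfrc became −1.49. Equal weight per cell gave −0.25 for ferritin, −0.71 for Tfrc and, for Slc40a1, −0.22 in place of 0.37 and, for Steap4, 3.44 in place of 1.80. Leaving out stromal-like cells gave −0.21 for ferritin and −1.35 for Tfrc, and equal cluster shares −0.17 and −0.38. The log2 difference of Tfrc between late and immature cells, −1.66, became −2.71 with the barcode filter, −2.98 with Leiden clustering and −2.85 with 1000 variable genes, and that of ferritin per Tfrc, 2.96, became 4.05, 4.36 and 4.21. Smaller differences came from 8 clusters (−1.11 and 2.38) and 30 neighbors (−1.40 and 2.72), and a larger one from leaving out barcodes with both hashtags (−2.48 and 3.64). The causes were not tested. In the other alternatives tried for these 4 results, the direction was kept. At 50 CPM 3 in place of 8 iron genes were lower in OVX. Inside the immature cluster, Tfrc had 2 UMIs in the 10 cells with at least 0.5% cycling gene UMIs (log2 ratio 1.10 over the others), and a cutoff of 1% left no Tfrc UMI, so it gave no value. No paired analysis was possible because each condition is 1 pool with no replicate number. Sparse members limit depth: Tfrc in neutrophil-like cells rests on 41 UMIs and Steap4 in sham neutrophil-like cells on 7.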
